A study of Mus musculus with 75 samples.

Results

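Transcripts of 9 genes that encode the TGF-beta ligands and the proteins that hold them latent were followed in mouse lung across bleomycin injury: *Tgfb1*, *Tgfb2*, *Tgfb3*, *Ltbp1*, *Ltbp2*, *Ltbp3*, *Ltbp4*, *Lrrc32* and *Nrros*. The genes were picked by symbol for their role in the pathway, with earlier results of these data known. They were 9 of the 55536 genes in the count table, and all 9 were among the 16221 genes with enough counts to be tested. The study sequenced polyadenylated RNA from the inferior lobe of 75 male C57BL/6JRj mice, with 1 library from each mouse, to follow lung disease over time. The mice were aged 12 to 14 weeks when bleomycin was given. BLEO-IPF mice had been given bleomycin (BLEO), an antineoplastic drug that injures the alveolar epithelium, in a single intratracheal instillation, and were kept only if they had lost 5 to 17% of body weight on day 6. The groups were 10 control mice (CTRL) and 65 BLEO-IPF mice, of which 10 were killed on day 7, 7 on day 42, and 12 on each of days 14, 21, 28 and 35. Mice of later days were thus also older when killed, and the CTRL titles give no day. Time after bleomycin and age cannot be told apart. The sample titles call the controls saline-treated whereas the protocol text calls them untreated. No engineered allele is named for any group.

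TGF-beta is secreted in a latent form. Each ligand precursor is cut by a proprotein convertase into a growth factor and a propeptide that stays wrapped around it, and the propeptide is bound covalently either to a latent TGF-beta binding protein (LTBP) in the matrix or to the transmembrane proteins GARP (*Lrrc32*) and LRRC33 (*Nrros*) on cell surfaces. Integrins that recognise the arginine-glycine-aspartate sequence of the propeptide pull on this anchored complex and free the growth factor, which drives fibroblasts to deposit collagen in fibrotic lung. LTBP-2 is the family member that does not bind latent TGF-beta and is found on fibrillin microfibrils, and LTBP-4 also guides elastic fiber assembly.

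The coding sequences, read from GRCm38 with the matching gene models, show the features on which latency and activation rest. *Tgfb1* and *Tgfb3* each held 1 run of codons for arginine-glycine-aspartate, the integrin recognition sequence, and *Tgfb2* held 0. The 9 bases of that run are in capitals below within the 63 coding bases around them, which cross an exon junction. They lie in a coding exon at chr7:25697142-25697150 on the plus strand for *Tgfb1* (codon 244) and at chr12:86062165-86062173 on the minus strand for *Tgfb3* (codon 261).
Tgfb1 integrin site: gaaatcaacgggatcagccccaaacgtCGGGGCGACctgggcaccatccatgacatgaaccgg
Tgfb3 integrin site: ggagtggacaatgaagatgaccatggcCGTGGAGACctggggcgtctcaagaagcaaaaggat
Cleavage by a proprotein convertase follows 4 codons rich in arginine and lysine codons, in capitals below, after which 112 codons encode the growth factor in each of the 3 ligands. These windows lie within 1 coding exon, at chr7:25697211-25697270 for *Tgfb1*, chr1:186630612-186630671 (minus strand) for *Tgfb2* and chr12:86062030-86062089 (minus strand) for *Tgfb3*.
Tgfb1 cleavage site: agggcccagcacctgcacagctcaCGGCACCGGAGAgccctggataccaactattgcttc
Tgfb2 cleavage site: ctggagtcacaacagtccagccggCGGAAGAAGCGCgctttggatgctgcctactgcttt
Tgfb3 cleavage site: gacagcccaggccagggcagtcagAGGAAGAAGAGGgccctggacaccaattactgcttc
The 4 LTBP coding sequences shared a high share of cysteine codons, 8.64% in *Ltbp1* (148 of 1713), 8.96% in *Ltbp2* (162 of 1809), 9.58% in *Ltbp3* (120 of 1253) and 9.66% in *Ltbp4* (161 of 1666). *Lrrc32* and *Nrros* instead encoded leucine-rich proteins, with 22.17% and 18.03% leucine codons of 663 and 721.

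Total counts ranged from 9240291 to 14665247 per library, and the lowest count of any of the 9 genes in any library was 268, of *Nrros*. Alveolar type 2 cell markers, which include the surfactant genes, summed to at least 6219.8 CPM (the count scaled to a common library total) in every library, so that lung tissue was present in each. BLEO-IPF mouse 10 of day 28 stood apart in both muscle and fat markers. It held 1216 CPM of 5 skeletal muscle markers against 16.3 CPM in the next highest, and 376 CPM of 4 brown adipose markers. Day 7 mouse 8 also held 109.6 CPM of the brown adipose markers, and the next library after it 10.1 CPM. Of 5 cardiac muscle markers mouse 10 of day 28 held 2121 CPM, and mice 11 and 8 of day 28 held 728 and 581 CPM. The mice of every other group held at most 404 CPM, and 4 of the 5 cardiac markers were called higher on day 28. Mouse 8 of day 14 held 563 CPM of 6 neutrophil markers against 181 CPM in the next highest. Mouse 10 of day 28 and mouse 8 of day 14 were then left out, with day 7 mouse 8 kept. The number of the 9 genes called was the same in each of the 12 comparisons. Over 72 fitted changes of these genes in 8 of the comparisons, the largest move was 0.082 on the log2 scale, for *Ltbp2* on day 28 against CTRL. Day 7 mouse 8 was outside this check. The *Tgfb1* call on day 7 was lost without that mouse, as it was without some other single libraries (below).

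CPM values were scaled with TMM factors, and each day was compared with CTRL in a single edgeR quasi-likelihood fit of all 75 mice, with Benjamini-Hochberg adjustment across all 16221 genes and a threshold of 0.05. The log2 fold change (log2FC) is given with its standard error (SE). Across the 7 groups, each of the 9 genes differed (adjusted p from 1.75e-14 for *Ltbp3* to 6.77e-05 for *Lrrc32*), as did 67.8% of all genes tested. On day 7, 5 genes rose and 1 fell, against 24.8% higher and 21.0% lower among all genes. On day 14, 7 rose and 1 fell (all genes 32.4% higher and 29.9% lower), with the same 7 and 1 counts on day 21 (all genes 28.3% higher and 25.8% lower). On day 28, 6 rose and 2 fell (all genes 24.1% higher and 19.2% lower). On day 35, 5 rose and 2 fell (all genes 16.9% higher and 13.1% lower), and on day 42, 4 rose and 2 fell (all genes 13.7% higher and 11.0% lower). The median log2FC of the 9 genes was 0.24, 0.60, 0.52, 0.37, 0.27 and 0.25 from day 7 to day 42. The median over all genes, which TMM scaling itself keeps near 0, was between -0.0024 and 0.018. Higher calls were shared by *Tgfb2*, *Tgfb3* and *Ltbp2* on all 6 days, a pattern held by 8.33% of all genes, and a lower call on all 6 days by *Ltbp4*, as in 5.31% of all genes. The 6 comparisons share the same 10 CTRL mice.

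Some changes were large enough to separate every mouse. On day 7, all BLEO-IPF mice lay above the highest CTRL mouse for *Tgfb3* and *Ltbp2* and below the lowest for *Ltbp4*, against 7.39% and 3.80% of all genes. On day 14 the genes wholly above CTRL were *Tgfb1*, *Tgfb2*, *Tgfb3*, *Ltbp2* and *Ltbp3* (all genes 9.46%), with *Ltbp4* wholly below (all genes 6.15%). Wholly higher on day 21 were *Tgfb2*, *Tgfb3*, *Ltbp2* and *Ltbp3* (all genes 6.84%), and *Ltbp4* remained wholly lower (all genes 4.85%). *Tgfb3*, *Ltbp2* and *Ltbp3* stayed apart on day 28 (all genes 2.10%), *Tgfb3* and *Ltbp2* on day 35 (all genes 2.43%), and *Tgfb2*, *Tgfb3*, *Ltbp2* and *Ltbp3* on day 42 with its 7 mice (all genes 4.22%). From day 28 on, none of the 9 genes was wholly below CTRL (all genes 1.34%, 1.34% and 3.37% on days 28, 35 and 42). In whole lung, fewer cells of a type and less RNA per cell cannot be told apart. Each library came from a different mouse, so p-values measure the spread between animals of this 1 experiment.

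**Figure D1:**
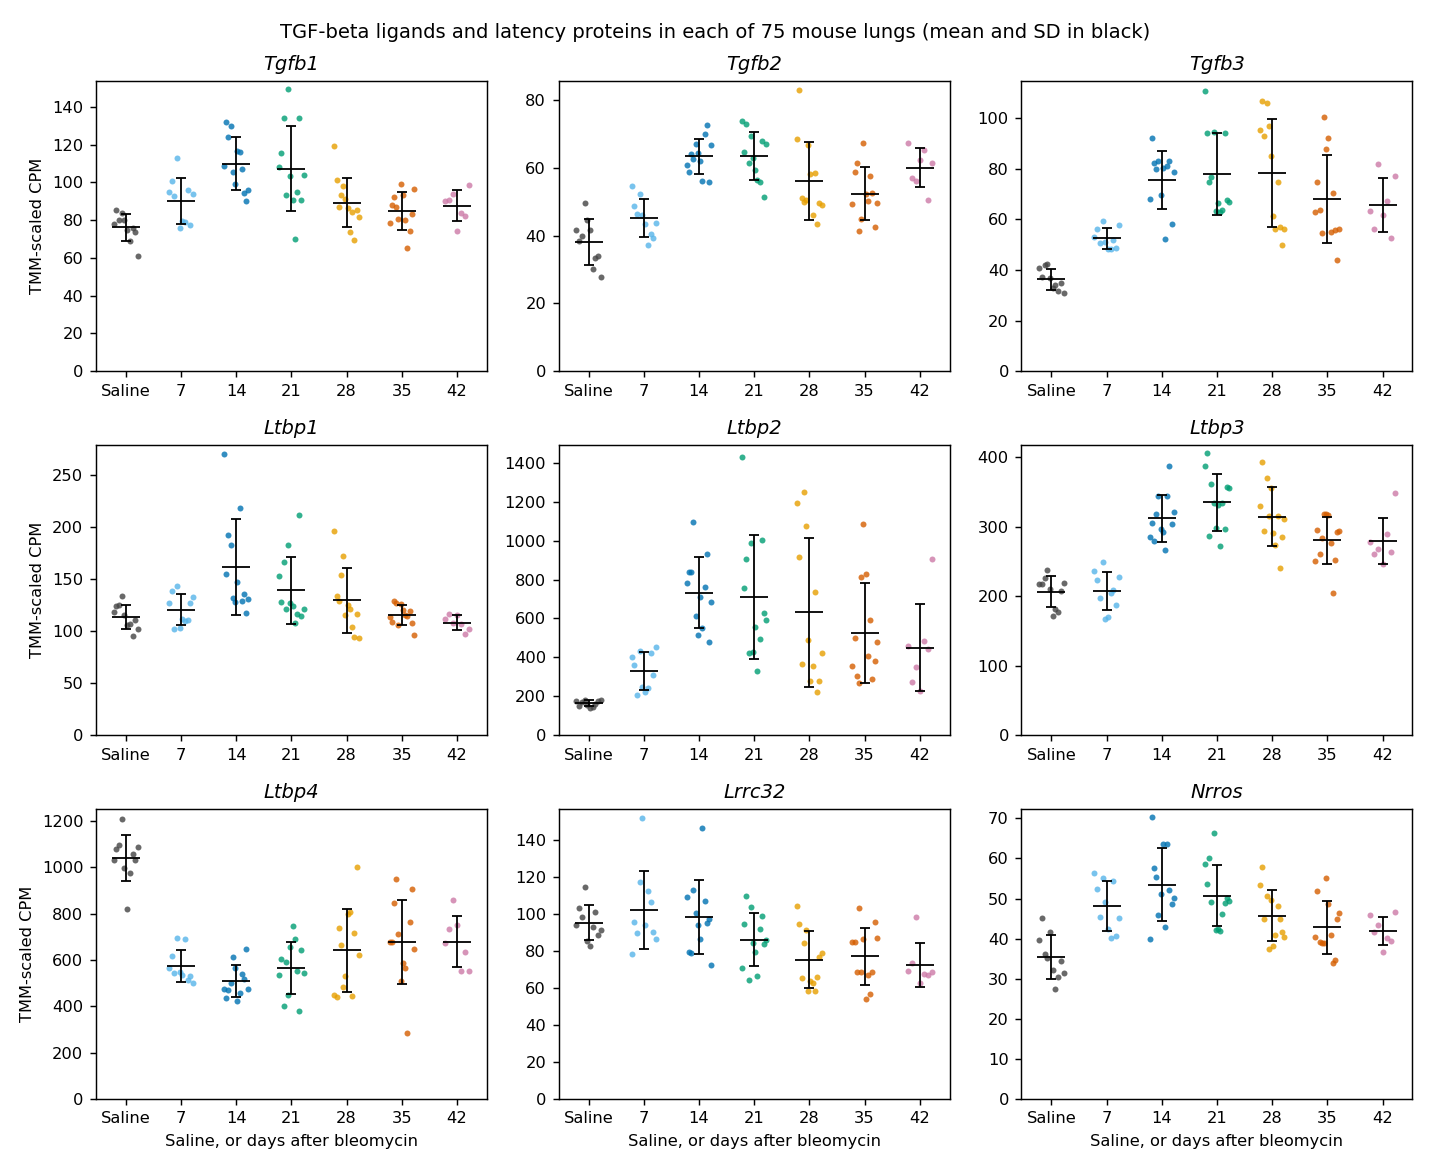
TMM-scaled CPM (y axis, from 0) of each gene in each mouse, by group (x axis: saline controls, then days after bleomycin), with points as mice and mean and SD in black over 10, 10, 12, 12, 12, 12 and 7 mice. *Ltbp2* and *Tgfb3* sat above every control on all 6 days (2.10% to 9.46% of all genes on single days). *Ltbp4* sat below every control on days 7, 14 and 21 (3.80% to 6.15% of all genes on single days).

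Of the ligands, *Tgfb1* (ENSMUSG00000002603, chr7:25687002-25705077, plus strand), the isoform most often linked to fibrosis, rose early and then returned towards CTRL. In CTRL lungs it ranged from 60.97 to 85.6 CPM (median 76.96). *Tgfb1* spanned 75.8 to 113 CPM (median 93.1) on day 7 and 90.2 to 132 CPM (median 108) on day 14. It spanned 69.9 to 149 CPM (median 104) on day 21 and 69.5 to 119 CPM (median 86.8) on day 28. The day 14 values cleared the CTRL range entirely, and 1 of 12 mice on day 21 and 4 of 12 on day 28 fell back into it. *Tgfb1* then covered 65.2 to 99.1 CPM (median 85.1) on day 35 and 74.03 to 98.8 CPM (median 90.2) on day 42, with 6 of 12 and 3 of 7 mice inside the CTRL range. The fitted log2FC was 0.24 on day 7 (SE 0.09, adjusted p = 0.0212), 0.53 on day 14 (SE 0.09, adjusted p = 2.87e-07) and 0.49 on day 21 (SE 0.09, adjusted p = 2.05e-06). It was 0.23 on day 28 (adjusted p = 0.0268), and on days 35 and 42 it was 0.15 and 0.20, which did not pass (95% interval -0.01 to 0.32 and 95% interval 0.01 to 0.40). The rise from day 7 to day 14 (log2FC 0.28, adjusted p = 0.0148, all genes 9.48% higher and 7.55% lower) and the decrease from day 14 to day 42 (log2FC -0.33, adjusted p = 0.00595, all genes 15.2% higher and 18.8% lower) both passed. The day 7 call was lost when any 1 of day 7 mice 2, 4 or 8 or CTRL mouse 10 was left out (adjusted p 0.0524 to 0.0614, log2FC 0.20 to 0.21), and the day 28 call without day 28 mouse 1 or CTRL mouse 10 (adjusted p 0.0775 to 0.0803, log2FC 0.18 to 0.19).

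*Tgfb2* (ENSMUSG00000039239, chr1:186622792-186705989, minus strand), whose coding sequence holds no codons for the integrin sequence shown above, was called on every day. CTRL lungs held 27.8 to 49.6 CPM (median 39.2). *Tgfb2* spanned 37.2 to 54.7 CPM (median 44.9) on day 7 and 55.7 to 72.6 CPM (median 63.3) on day 14. On day 7, 8 of 10 mice were still inside the CTRL range, and on day 14 none was. The values were 51.3 to 73.9 CPM (median 63.8) on day 21, 43.4 to 82.9 CPM (median 50.8) on day 28, 41.3 to 67.3 CPM (median 51.3) on day 35 and 50.6 to 67.5 CPM (median 61.6) on day 42. On days 28 and 35, 4 of 12 mice each lay within the CTRL range, and on day 42 all 7 lay above it. *Tgfb2* had a log2FC of 0.25 on day 7 (SE 0.09, adjusted p = 0.0209), 0.73 on day 14 (SE 0.09, adjusted p = 5.71e-11), 0.74, 0.56 and 0.45 on days 21, 28 and 35 (largest adjusted p = 3.08e-05) and 0.65 on day 42 (SE 0.10, adjusted p = 6.11e-07). From day 7 to day 14 it rose by 0.49 on the log2 scale (adjusted p = 5.43e-05), whereas day 42 against day 14 gave -0.08 (95% interval -0.26 to 0.11, adjusted p = 0.549). The day 7 call was lost without any 1 of day 7 mice 1 or 2 or CTRL mice 7 or 10 (adjusted p 0.0519 to 0.0779, log2FC 0.19 to 0.21). Markers of transitional alveolar epithelium (*Krt8*, *Cldn4*, *Sfn*, *Krt19*, *Lgals3*, *Krt18*) summed to 464 to 632 CPM in CTRL, 719 to 1459 CPM on day 14 and 561 to 899.6 CPM on day 42, with 5 of 6 called higher on both days. Of these, *Lgals3* averaged 99.7 CPM in CTRL, 282 CPM on day 14 and 217 CPM on day 42. It encodes galectin-3, which the authors describe as strongly expressed by macrophages, so the sum is not of epithelium alone. The part of these markers in the change of *Tgfb2* was not tested.

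*Tgfb3* (ENSMUSG00000021253, chr12:86056745-86079041, minus strand) had the largest changes among the ligands. CTRL lungs held 31.02 to 42.5 CPM (median 35.7). On day 7 *Tgfb3* already spanned 48.1 to 59.4 CPM (median 51.4), and on day 14 52.2 to 91.98 CPM (median 80.1). The lowest of all 65 BLEO-IPF mice, on day 35, was at 44.1 CPM, above the highest CTRL mouse. Wholly above CTRL on single days were 2.10% to 9.46% of all genes, and the share on every day was not counted. *Tgfb3* covered 63.1 to 111 CPM (median 71.3) on day 21, 49.9 to 107 CPM (median 79.9) on day 28, 44.1 to 100.4 CPM (median 63.3) on day 35 and 52.8 to 81.9 CPM (median 63.4) on day 42. The spread between mice was widest on day 28, where the SD was 21.3 CPM against 4.17 CPM in CTRL. The log2FC was 0.53 on day 7 (SE 0.13, adjusted p = 3.92e-04), 1.06 on day 14 (SE 0.12, adjusted p = 2.01e-11), 1.10, 1.10 and 0.90 on days 21, 28 and 35 (largest adjusted p = 2.06e-08) and 0.85 on day 42 (SE 0.14, adjusted p = 2.07e-06). It rose from day 7 to day 14 by 0.53 (adjusted p = 0.00122), and day 42 against day 14 gave -0.20 (95% interval -0.46 to 0.06, adjusted p = 0.233). *Tgfb3* overlaps *Ttll5* on the opposite strand with 0 shared exon bases. *Ttll5* had 25.6% as many counts, and with the strand handling of the counting not stated, intronic *Ttll5* reads could not be set apart.

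**Figure D2:**
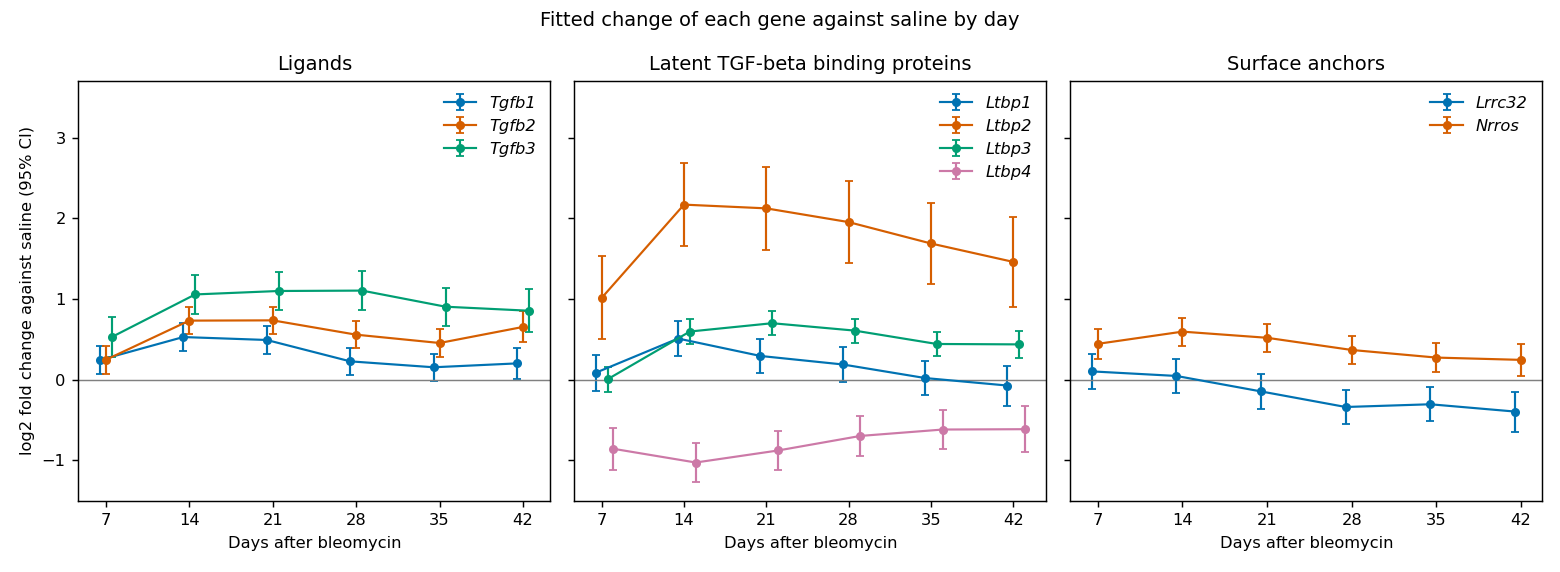
Fitted log2 fold change against the 10 saline controls (y axis) by day after bleomycin (x axis) for the ligands, the LTBP genes and the 2 surface anchors, with edgeR estimates as points and 95% intervals as whiskers. *Ltbp2* was highest at 2.17 on day 14, *Tgfb3* reached 1.10 on days 21 and 28, and *Ltbp4* was lowest at -1.03 on day 14.

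Levels of different genes were set side by side per kilobase of annotated exon (5042 bases for *Tgfb1*, 5791 for *Tgfb2* and 3383 for *Tgfb3*). The length of the transcripts expressed in lung was not measured. The order of genes and the sign of a ratio therefore depend on this divisor, whereas the shift of a ratio against CTRL does not. By this measure the mean order of the ligands in CTRL lungs was *Tgfb1* (15.1 CPM per kilobase), *Tgfb3* (10.8) and *Tgfb2* (6.59). On day 28 it was *Tgfb3* (23.1), *Tgfb1* (17.7) and *Tgfb2* (9.71). The ratio of 2 genes within each mouse was set against CTRL by a two-sided permutation test of the mean log2 ratio, exact for day 42, with p-values adjusted over 5 ratios and 6 days. The genes paired were chosen with earlier results of these data known. How often ratios of other gene pairs passed or lay wholly outside the CTRL range was not counted. The log2 *Tgfb3*/*Tgfb1* ratio per kilobase lay between -0.67 and -0.36 in the 10 CTRL mice, so that *Tgfb1* was the higher in each. It was above 0, with *Tgfb3* the higher, in 7 of 12 mice on day 14, 8 of 12 on day 21, 11 of 12 on day 28, 9 of 12 on day 35 and 5 of 7 on day 42. Against CTRL the shift was 0.29, 0.52 and 0.84 on days 7, 14 and 28 (permutation, adjusted p = 5.00e-05 each) and 0.64 on day 42 (exact permutation, adjusted p = 1.81e-04). The raw p-values behind these, 2.00e-05 and 1.03e-04, were the smallest the permutations could give. The log2 *Tgfb2*/*Tgfb1* ratio moved by 0.02 on day 7 (permutation, adjusted p = 0.795), 0.22 on day 14 (adjusted p = 0.0232) and 0.46 on day 42 (exact, adjusted p = 1.81e-04), where all 7 mice were above every CTRL mouse. *Tgfb3* also gained on *Tgfb2* from day 7 (0.27, adjusted p = 0.00126) to day 35 (0.41, adjusted p = 7.20e-04, both by permutation), and the difference on day 42 of 0.18 did not pass (exact permutation, adjusted p = 0.10).

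**Figure D3:**
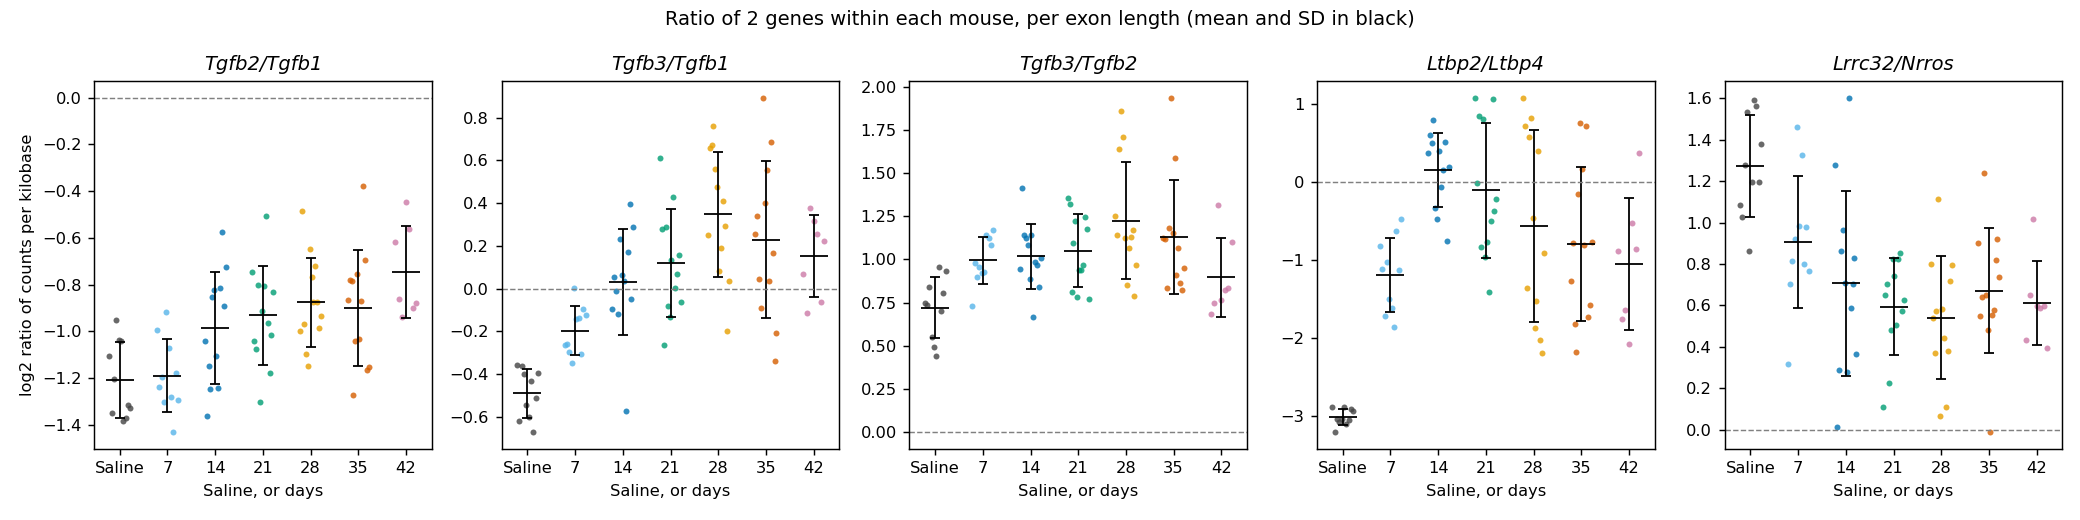
Log2 ratio of 2 genes within each mouse, per kilobase of annotated exon (y axis, 0 marks equal counts per kilobase), by group (x axis: saline, then days after bleomycin), with points as mice and mean and SD in black. *Ltbp2*/*Ltbp4* averaged -3.01 in saline and 0.15 on day 14, and *Tgfb3*/*Tgfb1* averaged -0.49 in saline and 0.35 on day 28.

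Among the binding proteins, *Ltbp2* (ENSMUSG00000002020, chr12:84783212-84876532, minus strand) rose most. CTRL lungs were closely spaced at 141 to 182 CPM (median 165). *Ltbp2* spanned 208 to 453 CPM (median 334) on day 7 and 481 to 1096 CPM (median 735) on day 14. None of the BLEO-IPF mice of any day overlapped CTRL. On single days 2.10% to 9.46% of all genes lay wholly above CTRL, and the share doing so on every day was not counted. Later values were 327 to 1429 CPM (median 609.6) on day 21, 224 to 1249 CPM (median 455) on day 28, 266 to 1087 CPM (median 444) on day 35 and 225 to 907 CPM (median 442) on day 42. The mice of 1 day lay further apart after bleomycin, the highest over the lowest being 1.29 in CTRL, 2.28 on day 14 and 5.58 on day 28. On day 28, mice 1, 2, 4 and 5 lay between 917 and 1249 CPM and the other 8 between 224 and 736 CPM, the lowest being mouse 10, which carried the muscle and fat markers. The log2FC was 1.01 on day 7 (SE 0.26, adjusted p = 0.00107), 2.17 on day 14 (4.50-fold, SE 0.26, adjusted p = 1.18e-10), 2.12, 1.95 and 1.69 on days 21, 28 and 35 (largest adjusted p = 5.08e-07) and 1.46 on day 42 (SE 0.28, adjusted p = 7.63e-05). Day 14 exceeded day 7 by 1.16 (adjusted p = 9.30e-04), and day 42 against day 14 was -0.71 (adjusted p = 0.0429), a call that was lost without any 1 of 11 libraries (day 14 mice 1, 2, 3, 4 and 10 and day 42 mice 1, 2, 3, 4, 5 and 6; adjusted p 0.0537 to 0.116, log2FC -0.73 to -0.59). Myofibroblast markers (*Cthrc1*, *Postn*, *Col1a1*, *Aspn*, *Fap*, *Lrrc15*, *Sfrp1*) summed to 879 to 1040.1 CPM in CTRL, 1809.8 to 5560.4 CPM on day 14, 1010.3 to 4526 CPM on day 28 and 957 to 1487 CPM on day 42, with 6 of 7 called higher on day 14 and 1 on day 42. The sum rested mostly on *Col1a1*, which averaged 331 CPM in CTRL and 2472 CPM on day 14, and *Postn*, at 547 and 636 CPM. *Postn* and *Col1a1* are also among the TGF-beta response genes below, and *Aspn* among the binding proteins. Their part in *Ltbp2* or *Tgfb3* was not tested.

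*Ltbp4* (ENSMUSG00000040488, chr7:27305136-27337692, minus strand) fell, and it was lower on every day. CTRL lungs held 821 to 1208 CPM (median 1046). *Ltbp4* spanned 499 to 697 CPM (median 546) on day 7 and 425 to 646 CPM (median 489) on day 14. Every mouse of these days lay below every CTRL mouse, as did those of day 21 at 380.1 to 748 CPM (median 572). *Ltbp4* then covered 440.0 to 1002 CPM (median 645) on day 28, 286 to 949.8 CPM (median 678) on day 35 and 551 to 861 CPM (median 673) on day 42. In these later groups 1 of 12, 3 of 12 and 1 of 7 mice reached the CTRL range, while mouse 9 of day 35 had the lowest value of all 75 mice. The log2FC was -0.86 on day 7 (SE 0.13, adjusted p = 2.15e-07), -1.03 on day 14 (SE 0.12, adjusted p = 1.25e-10), -0.88, -0.70 and -0.62 on days 21, 28 and 35 (largest adjusted p = 7.75e-05) and -0.61 on day 42 (SE 0.15, adjusted p = 0.00121). Day 42 was higher than day 14 by 0.41 (adjusted p = 0.0154), a call lost without day 42 mouse 3 (log2FC 0.35, adjusted p = 0.0556). Markers of resident fibroblasts (*Pdgfra*, *Tcf21*, *Npnt*, *Inmt*, *Col13a1*, *Scara5*, *Pi16*, *Dpt*) summed to 3451 to 4333 CPM in CTRL, 1439 to 2512 CPM on day 14 and 1839.6 to 3477 CPM on day 42, and of the 8 genes 4 were lower and 2 higher on day 14. Their part in *Ltbp4* was not tested.

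The opposite courses changed the order of the binding protein transcripts per kilobase of annotated exon, an order that depends on this divisor as above. Per kilobase of exon, CTRL lungs held 161 CPM of *Ltbp4*, 22.7 of *Ltbp3*, 19.9 of *Ltbp2* and 10.6 of *Ltbp1*, and day 14 lungs held 89.6 of *Ltbp2*, 78.99 of *Ltbp4*, 34.4 of *Ltbp3* and 15.1 of *Ltbp1*. The log2 *Ltbp2*/*Ltbp4* ratio was at most -2.88 in the CTRL mice and above it in all 65 BLEO-IPF mice (share of other gene pairs not counted). It exceeded 0 in 8 of 12 mice on day 14, 4 of 12 on day 21, 5 of 12 on day 28, 3 of 12 on day 35 and 1 of 7 on day 42. Against CTRL it shifted by 1.82, 3.16 and 2.22 on days 7, 14 and 35 (permutation, adjusted p = 5.00e-05 each), and 1.96 on day 42 (exact permutation, adjusted p = 1.81e-04). *Ltbp2* rose most and *Ltbp4* alone was lower on every day, so this shift restates their opposite changes and is not independent evidence.
The 250 bases before a RefSeq start of each gene (GRCm38.p6) are given for this pair, since they moved in opposite directions. The SMAD box CAGAC on either strand is in capitals. *Ltbp2* held 2 matches, at chr12:84876492-84876741 on the minus strand, and *Ltbp4* 0, at chr7:27337613-27337862 on the minus strand.
Ltbp2 upstream: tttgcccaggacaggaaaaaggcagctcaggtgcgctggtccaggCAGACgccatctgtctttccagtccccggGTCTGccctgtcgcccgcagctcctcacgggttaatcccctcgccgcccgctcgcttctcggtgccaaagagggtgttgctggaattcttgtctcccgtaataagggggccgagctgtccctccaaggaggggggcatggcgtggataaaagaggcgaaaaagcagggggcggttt
Ltbp4 upstream: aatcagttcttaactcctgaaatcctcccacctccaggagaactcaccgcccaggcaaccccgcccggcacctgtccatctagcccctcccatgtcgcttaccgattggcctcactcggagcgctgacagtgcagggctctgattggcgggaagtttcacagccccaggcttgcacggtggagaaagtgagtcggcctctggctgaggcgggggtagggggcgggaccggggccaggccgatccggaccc
The same 5 letters occurred in 42.2% of 32851 such windows of mouse genes. *Tgfb2* also held 2 matches, *Ltbp3* and *Nrros* held 1 and *Tgfb1* held 0. The 2 listed starts of *Ltbp1* held 1 and 2, and all 3 listed starts of *Ltbp4* held 0. A match describes the letters and is not a site. *Tgfb3* and *Lrrc32* were not in the promoter table.

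*Ltbp3* (ENSMUSG00000024940, chr19:5740904-5758532, plus strand), a binding protein for latent TGF-beta, was not called on day 7 and then rose. CTRL lungs held 171 to 237 CPM (median 214), and day 7 lungs 168 to 249 CPM (median 207). The 2 groups overlapped, with 7 of 10 day 7 mice inside the CTRL range. *Ltbp3* spanned 266 to 387 CPM (median 305) on day 14, 273 to 406 CPM (median 334) on day 21 and 241 to 393 CPM (median 313) on day 28, with all mice above CTRL. It then covered 204 to 319 CPM (median 288) on day 35, where 1 mouse was inside the CTRL range, and 246 to 349 CPM (median 268) on day 42. The log2FC was 0.01 on day 7 (95% interval -0.15 to 0.16, adjusted p = 0.963), 0.60 on day 14 (SE 0.08, adjusted p = 5.17e-10), 0.70 on day 21 (SE 0.08, adjusted p = 8.10e-12), and 0.61, 0.44 and 0.44 on days 28, 35 and 42 (largest adjusted p = 1.01e-04). Between day 7 and day 14 it rose by 0.59 (SE 0.08, adjusted p = 2.25e-07). Day 42 against day 14 was -0.16 (adjusted p = 0.134), and it passed without day 42 mouse 7 (log2FC -0.22, adjusted p = 0.0423). Since the strand handling of the counting is not stated, part of the level of *Ltbp3* is uncertain.

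*Ltbp1* (ENSMUSG00000001870, chr17:75005568-75392512, plus strand), the first described LTBP, rose briefly. It held 94.6 to 133 CPM (median 113) in CTRL, 101 to 143 CPM (median 119) on day 7 and 117 to 269.7 CPM (median 141) on day 14. On day 14, 5 of 12 mice stayed in the CTRL range and mouse 1 was the highest. *Ltbp1* spanned 107 to 211 CPM (median 125) on day 21, 92.96 to 196 CPM (median 123) on day 28, 95.8 to 128 CPM (median 115) on day 35 and 96.5 to 116 CPM (median 107) on day 42. All 12 mice of day 35 and all 7 of day 42 were within the CTRL range. It was called on day 14 (log2FC 0.51, SE 0.11, adjusted p = 5.47e-05) and day 21 (log2FC 0.29, SE 0.11, adjusted p = 0.0196). The latter was lost without day 21 mouse 3 or 10 (log2FC 0.25 and 0.22, adjusted p 0.0573 to 0.0714). The estimates of 0.09 on day 7, 0.19 on day 28 (95% interval -0.03 to 0.40), 0.02 on day 35 and -0.07 on day 42 (95% interval -0.32 to 0.18) did not pass. Both the rise from day 7 to day 14 (0.42, adjusted p = 0.00473) and the decrease from day 14 to day 42 (-0.58, SE 0.12, adjusted p = 1.91e-04) passed.

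*Lrrc32* (ENSMUSG00000090958, chr7:98489283-98502181, plus strand) encodes GARP, which docks latent TGF-beta on regulatory T cells, platelets and endothelial cells. It was not called early and fell late. It ranged from 82.5 to 115 CPM (median 93.7) in CTRL, 78.7 to 152 CPM (median 95.1) on day 7 and 72.7 to 147 CPM (median 96.4) on day 14. These 3 groups overlapped, with 7 of 10 and 8 of 12 BLEO-IPF mice inside the CTRL range. *Lrrc32* spanned 64.5 to 110.0 CPM (median 85.00) on day 21, 58.3 to 104 CPM (median 71.4) on day 28, 54.1 to 103 CPM (median 76.8) on day 35 and 62.5 to 98.5 CPM (median 68.8) on day 42. On days 28 and 42, 4 of 12 and 1 of 7 mice remained inside the CTRL range. On day 35, mice 1, 2, 4, 6, 11 and 12 also lay inside it. The log2FC was 0.10, 0.05 and -0.15 on days 7, 14 and 21, none of which passed (95% interval -0.12 to 0.32, 95% interval -0.17 to 0.26 and 95% interval -0.36 to 0.07). It then was -0.34 on day 28 (SE 0.11, adjusted p = 0.00866), -0.30 on day 35 (SE 0.11, adjusted p = 0.0259) and -0.39 on day 42 (SE 0.13, adjusted p = 0.0166). The day 14 estimate changed sign without mouse 8 of that day, which carried the neutrophil markers (log2FC -0.03, adjusted p = 0.827), and the day 35 call was lost without CTRL mouse 4 or day 35 mouse 7 or 9 (adjusted p 0.0520 to 0.0584, log2FC -0.27 in each case). Day 42 was lower than day 14 by the test of that difference (-0.44, adjusted p = 0.00361). Endothelial markers (*Pecam1*, *Cdh5*, *Cldn5*, *Vwf*, *Tie1*, *Tek*, *Ptprb*, *Gpihbp1*, *Car4*) summed to 5069 to 6540.2 CPM in CTRL, 3159 to 5096 CPM on day 14 and 4157 to 5472 CPM on day 42, with 6 of 9 lower and 1 higher on day 14 and 3 lower on day 42. Regulatory T cell markers (*Foxp3*, *Il2ra*, *Ctla4*, *Ikzf2*, *Ikzf4*, *Tnfrsf18*) summed to 15.6 to 22.04, 15.6 to 56.5 and 17.5 to 29.8 CPM in the same groups, with 5 of 6 higher on day 14 and 1 on day 42. Platelet markers (*Pf4*, *Ppbp*, *Itga2b*, *Gp9*, *Gp1bb*, *Gp6*, *Treml1*; 6 tested) summed to 36.3 to 73.6, 29.8 to 46.8 and 27.9 to 66.7 CPM, with 1 gene at 0 in CTRL and 4 lower on day 14. Their part in *Lrrc32* was not tested.

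*Nrros* (ENSMUSG00000052384, chr16:32142785-32165594, minus strand) encodes LRRC33, which anchors latent TGF-beta on macrophages and microglia, and it rose from day 7. It ranged from 27.4 to 45.1 CPM (median 34.8) in CTRL, 40.03 to 56.3 CPM (median 47.3) on day 7 and 39.95 to 70.3 CPM (median 51.6) on day 14. Of the BLEO-IPF mice, 3 of 10 on day 7 and 2 of 12 on day 14 lay inside the CTRL range. *Nrros* spanned 41.8 to 66.3 CPM (median 49.3) on day 21, 37.4 to 57.8 CPM (median 44.9) on day 28, 33.8 to 55.1 CPM (median 40.6) on day 35 and 36.7 to 46.6 CPM (median 41.7) on day 42, and the mice inside the CTRL range numbered 3, 7, 8 and 5. The log2FC was 0.44 on day 7 (SE 0.09, adjusted p = 6.62e-05), 0.60 on day 14 (SE 0.09, adjusted p = 3.98e-08), 0.52, 0.37 and 0.27 on days 21, 28 and 35 (largest adjusted p = 0.0145) and 0.25 on day 42, which did not pass (95% interval 0.05 to 0.45, adjusted p = 0.0664). That last estimate passed when CTRL mouse 2 or 5 was left out (adjusted p 0.0305 to 0.0442, log2FC 0.28 to 0.29). Day 42 was below day 14 (-0.35, adjusted p = 0.00434). The log2 *Lrrc32*/*Nrros* ratio moved by -0.36 on day 7 (permutation, adjusted p = 0.0127), -0.73 on day 28 (permutation, adjusted p = 5.00e-05) and -0.66 on day 42 (exact permutation, adjusted p = 3.43e-04). On day 21 all 12 mice were below the lowest CTRL mouse in this ratio (share of other gene pairs not counted). Monocyte-derived macrophage markers (*Spp1*, *Trem2*, *Gpnmb*, *Ms4a7*, *C1qa*, *C1qb*, *C1qc*, *Cx3cr1*, *Apoe*) summed to 672 to 905 CPM in CTRL, 2712 to 13404 CPM on day 14 and 1149 to 5095 CPM on day 42, with all 9 called higher on both days. Their part in *Nrros* was not tested.

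In time, calls between consecutive groups were found only in the steps to day 7 and to day 14. From CTRL to day 7, 5 of the 9 genes rose and 1 fell, where 24.8% of all genes were called higher and 21.0% lower, and from day 7 to day 14, 6 rose and none fell, where 9.48% of all genes were higher and 7.55% lower. The steps from day 14 to 21, 21 to 28, 28 to 35 and 35 to 42 gave 0 calls each in edgeR and in DESeq2, where 1.03%, 0.727%, 1.27% and 0% of all genes were called by edgeR, and 1, 2, 1 and 1 of the 9 had an unadjusted p under 0.05. *Tgfb1* on day 28 against day 21 passed without day 28 mouse 1 or day 21 mouse 8 (log2FC -0.31 for both, adjusted p 0.0216 to 0.0291). From day 14 to day 42 as a whole, *Tgfb1*, *Ltbp1*, *Ltbp2*, *Lrrc32* and *Nrros* were called lower and *Ltbp4* higher. Over all genes 18.8% were lower and 15.2% higher. The *Ltbp2* call was lost without any 1 of 11 libraries and the *Ltbp4* call without 1 library. *Tgfb2*, *Tgfb3* and *Ltbp3* did not pass. With the 7 groups of each gene set in order of their means, only 7 of the 54 steps between neighbouring groups exceeded the larger SD of the pair. They were the lowest step, from CTRL to day 7, for *Tgfb2*, *Tgfb3* and *Ltbp2*, the step from day 7 to day 42 for *Tgfb3* and *Ltbp3*, from day 42 to CTRL for *Ltbp4* and from CTRL to day 42 for *Nrros*. The other steps lay within the spread of single mice, which does not show that the means are alike. This rule is not the fitted test, as *Nrros* on day 42 exceeded it but was not called against CTRL (edgeR, adjusted p = 0.0664).

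Mice of the same group also varied together. Taking each mouse's deviation from its group mean in log2 CPM over 75 mice in 7 groups, Pearson's r was 0.74 for *Tgfb3* with *Ltbp2* (Spearman's rho 0.73), 0.64 for *Tgfb1* with *Nrros* (rho 0.64) and 0.63 for *Tgfb1* with *Ltbp1* (rho 0.63). *Ltbp4* ran against *Ltbp2* (-0.58, rho -0.61), *Tgfb3* (-0.40, rho -0.38) and *Tgfb2* (-0.40, rho -0.35). *Lrrc32* showed little relation to *Tgfb3* (-0.0011, rho 0.06), *Tgfb2* (0.02, rho -0.02) or *Nrros* (0.12, rho 0.15). It did vary with *Tgfb1* (0.40, rho 0.39) and *Ltbp1* (0.35, rho 0.26). These are descriptions. Both genes of a pair come from the same library and share its scaling and tissue makeup.

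**Figure D4:**
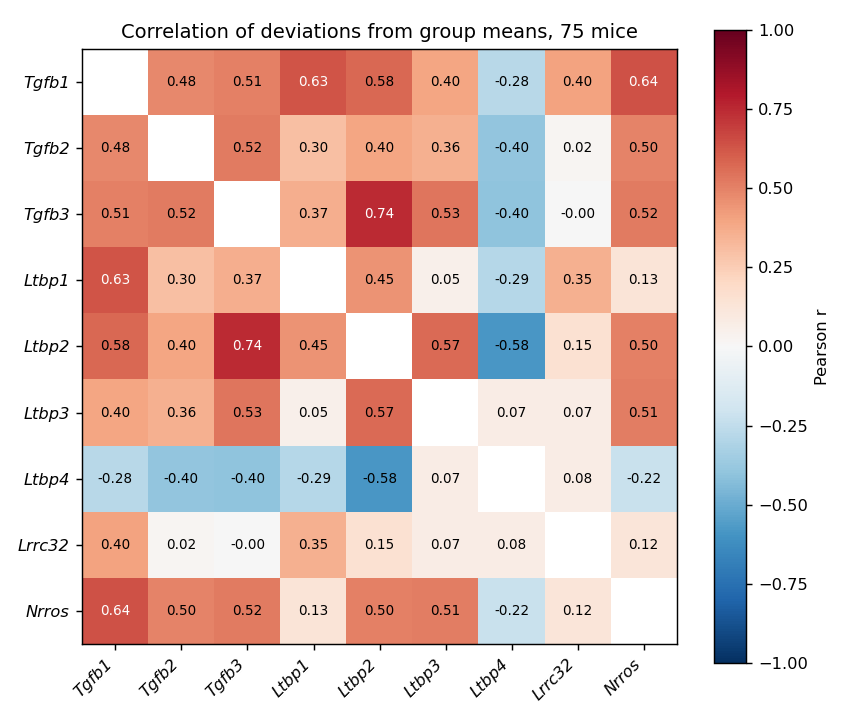
Pearson's r (color and number) between the 9 genes, in both axes, of each mouse's deviation from its group mean in log2 CPM over 75 mice. *Tgfb3* with *Ltbp2* was the highest pair at 0.74 and *Ltbp2* with *Ltbp4* the lowest at -0.58.

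The 3 genes whose log2 CPM followed each of the 9 most closely, out of 13806 with a symbol and a mean log2 CPM above 1, are given with Pearson's r over the 75 mice and then r of the deviations from group means, which was the lower in all 27 pairs. *Tgfb1* was closest to *Sdc3* (0.87, 0.80), a syndecan, *Plod3* (0.87, 0.77), a lysyl hydroxylase, and *B4galt5* (0.87, 0.78), a galactosyltransferase. *Tgfb2* was closest to *Itgb6* (0.87, 0.77), the integrin subunit that activates latent TGF-beta on epithelium, *Ankrd34b* (0.82, 0.48) and *Prcp* (0.81, 0.54), a carboxypeptidase. *Tgfb3* also led with *Prcp* (0.90, 0.76), followed by *Mfap5* (0.89, 0.73), a microfibril protein, and *Cilp* (0.89, 0.73), a matrix protein first known from cartilage. *Ltbp1* was nearest to *Lamb1* (0.90, 0.86), a laminin chain, *Itga5* (0.88, 0.85), a fibronectin receptor subunit, and *Palld* (0.87, 0.80), an actin-binding protein. *Ltbp2* was nearest to *Frzb* (0.93, 0.85), a secreted Wnt antagonist, *Igf1* (0.93, 0.88), a growth factor, and *Cacnb3* (0.93, 0.83), a calcium channel subunit. *Ltbp3* was nearest to *Fam234a* (0.83, 0.58), *Ankrd34b* (0.82, 0.41) and *Unc5b* (0.82, 0.46), a netrin receptor. *Ltbp4* was nearest to *Gsn* (0.90, 0.85), the actin-severing gelsolin, *Tnxb* (0.90, 0.84), a tenascin, and *Faim2* (0.89, 0.78). *Lrrc32* had the lowest values, with *Actn4* (0.74, 0.70), an actin crosslinker, *Ampd3* (0.74, 0.63), an AMP deaminase, and *Cmklr1* (0.74, 0.65), the chemerin receptor. *Nrros* was nearest to *Nfkb2* (0.85, 0.73), an NF-kappaB subunit, *Fscn1* (0.84, 0.69), the actin bundler fascin, and *Rcan1* (0.82, 0.66), a calcineurin regulator. As above, the paired values come from shared libraries.

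The rest of the pathway was described from 6 gene lists, of which the genes named are those that changed most on day 14, and the further genes named to complete a small count were picked after their values were seen. On day 14 the share called was 32.4% higher and 29.9% lower over all genes, and on day 42 it was 13.7% and 11.0%. All 6 receptors and co-receptors passed on day 14, 2 higher and 4 lower (median log2FC -0.65, all genes 0.0079). The signalling receptors *Tgfbr1* (0.74, adjusted p = 5.96e-09) and *Tgfbr2* (0.71, adjusted p = 3.31e-11) rose and were also called on day 42 (0.43, adjusted p = 0.00414, and 0.24, adjusted p = 0.0497). The co-receptor betaglycan, *Tgfbr3*, fell (-0.98, adjusted p = 5.35e-12), as did the endothelial receptors *Eng* (-0.62) and *Acvrl1* (-0.69) and the little expressed *Tgfbr3l* (-0.73, adjusted p = 0.00289). On day 42 *Tgfbr3* was still -1.003, and *Tgfbr3l* no longer passed (-0.52, adjusted p = 0.122).

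Of 15 integrin subunits, proteases and other activators of latent TGF-beta, 14 were tested and 12 rose on day 14 (median log2FC 0.95), all but *Mmp9* (0.0049) and *Tll1* (0.13). The largest were the membrane protease *Mmp14* (2.59), thrombospondin *Thbs1* (2.48) and the gelatinase *Mmp2* (2.34, adjusted p = 5.39e-23). *Itgb6* rose by 1.22 on day 14 and was still 1.10 on day 42 (adjusted p = 1.96e-06), where 6 genes were higher and 1, *Tll1*, was lower (-0.52). Of 13 matrix anchors of latent complexes, 11 rose and 1 fell on day 14 (median 1.02). Elastin, *Eln* (4.87), fibronectin, *Fn1* (3.32), and fibrillin *Fbn2* (2.96) moved most, *Efemp1* fell (-0.65), and *Adamtsl4* was at -0.06 and did not pass. On day 42, 8 were higher and 2 lower (all genes 13.7% and 11.0%), with *Eln* at 2.54 and *Fbn2* at 0.04, which did not pass. Of 8 other extracellular proteins that bind TGF-beta, 4 rose and none fell on day 14, namely the proteoglycans *Fmod* (2.59), *Lum* (1.34) and *Bgn* (1.10) and the protease *Htra3* (0.61), and by day 42 *Fmod* alone passed (1.91, adjusted p = 3.63e-04).

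Downstream, 4 of 12 signal transducers and inhibitors rose and 5 fell on day 14 (median -0.06). The feedback inhibitor *Pmepa1* rose (1.67, adjusted p = 5.06e-11), and the decoy receptor *Bambi* (-1.15) and the inhibitory *Smad6* (-0.76) fell. All 13 genes counted as TGF-beta responses were higher on day 14 (median 1.61), led by *Timp1* (4.78), a protease inhibitor, *Tnc* (4.10), tenascin C, and *Lox* (3.06), a collagen crosslinking enzyme. The number higher was 10, 13, 9, 7 and 3 on days 7, 21, 28, 35 and 42, where 24.8%, 28.3%, 24.1%, 16.9% and 13.7% of all genes were higher, and none was lower on any day. The 3 genes still higher on day 42 were *Col3a1* (1.04), *Timp1* (1.98) and *Tnc* (2.16). On that day *Tgfb2* (0.65), *Tgfb3* (0.85) and *Ltbp2* (1.46) were higher too, whereas *Tgfb1* (0.20) did not pass. All 13 response genes were lower on day 42 than on day 14, as were 18.8% of all genes. These genes were chosen with results of these mice known, so their direction is not independent evidence.

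**Figure D5:**
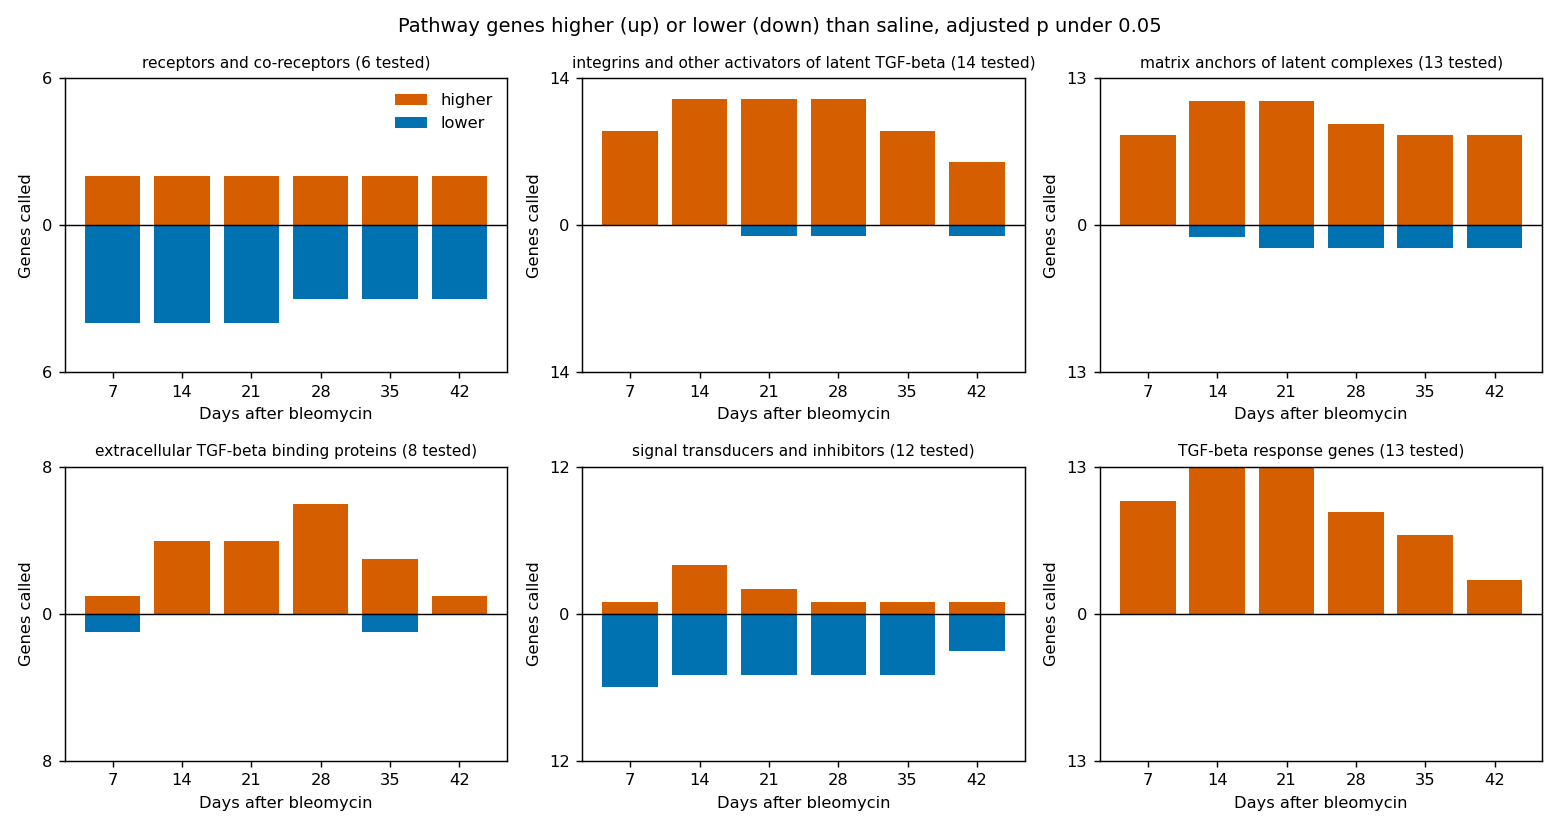
Number of genes of each pathway list called higher (orange, upward) or lower (blue, downward) than the 10 saline controls at an adjusted p under 0.05 (y axis, scaled to the number tested) by day after bleomycin (x axis). All 13 response genes were higher on days 14 and 21 and 3 on day 42, whereas 2 receptors were higher and 3 or 4 lower on each day.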

How the data were processed

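The values are deposited counts of reads per gene, which the authors made from RNA of 75 mouse lungs with a directional, polyadenylated-RNA library kit, single-end sequencing and STAR 2.7.0f on GRCm38 (Ensembl 96). The counting program and its use of strand are not given in the sources used here. All 55536 gene identifiers matched the annotation. No 2 libraries of a group were alike within sampling noise (lowest chi-square per degree of freedom 4.11 over 375 pairs). Libraries held 9240291 to 14665247 counts.

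Counts were fitted in edgeR 4.0.16 (R 4.3.3) by quasi-likelihood F-tests with TMM factors and filterByExpr, all 75 mice in 1 fit, and 12 pairs of groups were compared with Benjamini-Hochberg adjustment over 16221 genes at 0.05. Log2 CPM and within-mouse ratios used a prior count of 2. Ratios were tested with scipy 1.17.1 by 100000 resamples, or exactly for day 42. Plots used matplotlib 3.10.9. The fit was tested on simulated counts. DESeq2 1.42.0, other scalings and filters, fits of 2 groups, a replicate block and the removal of single libraries were alternatives, and the removal of 2 libraries together was chosen after seeing the data. The 9 genes and the lists were chosen with earlier results of these data known. In the lists of response genes and monocyte-derived macrophage markers, 1 gene each is not reported here, and counts and sums are over the others. Genes named are the 9, the 3 most like each by r over 75 mice, all receptors, and the 3 of each list with the largest change among those called on day 14. Further genes that complete a small count were named after their values were seen. Same-numbered mice did not deviate together (mean r 0.0058 over 204 pairs), so numbers do not pair the mice.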

Additional observations from a re-analysis of the deposited data

Results flagged for a closer look

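In 27 groups of values with 7 or 10 mice, 4 had a mouse far from the others for the size of the group, where chance alone gives about 1 in 20. *Lrrc32* was 152 CPM in day 7 mouse 5, against 117 CPM in the next. On day 42, *Lrrc32* was 98.5 CPM in mouse 3 (next 73.5), *Ltbp2* was 907 CPM in mouse 7 (next 482) and *Ltbp3* was 349 CPM in the same mouse 7 (next 289).

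The change against CTRL differed between days by the test of the difference itself (edgeR, adjusted over all genes). From day 7 to day 14 it grew by 0.28 for *Tgfb1*, 0.49 for *Tgfb2*, 0.53 for *Tgfb3*, 0.42 for *Ltbp1*, 1.16 for *Ltbp2* and 0.59 for *Ltbp3* on the log2 scale. From day 14 to day 42 it moved by -0.33 for *Tgfb1*, -0.58 for *Ltbp1*, -0.71 for *Ltbp2*, 0.41 for *Ltbp4*, -0.44 for *Lrrc32* and -0.35 for *Nrros*. Of these, the *Ltbp2* and *Ltbp4* calls were lost with some single libraries left out, as given above.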

How the results depend on the processing

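The number of the 9 genes called kept within 1.5 times its value, in each of the 12 comparisons and the test across groups, under library size scaling, upper quartile factors, no filter, at least 10 counts in every library, DESeq2, only the 2 groups in the fit where that fit could be made (12 comparisons), the replicate block and the removal of the 2 libraries that stood apart. With 1 library left out at a time (gene set and dispersion trend kept from the full fit) it ranged from 4 to 6 on day 7, 8 to 8 on day 14, 7 to 8 on days 21 and 28, 6 to 7 on days 35 and 42, 6 to 6 for day 14 against day 7, 4 to 7 for day 42 against day 14, and 0 to 1 for day 28 against day 21. Of 30 ratio tests 28 passed, and 28 with a prior count of 0.5 or the size factors of DESeq2. The share that would pass among ratios of other gene pairs was not counted.

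Calls lost were *Ltbp2* on day 42 against day 14 by library size (adjusted p = 0.0501) and without a filter (adjusted p = 0.0791), and without a filter also *Tgfb1* on day 28 (adjusted p = 0.0523) and *Lrrc32* on day 35 (adjusted p = 0.0502), where more genes were tested. Calls gained with only the 2 groups fitted were *Tgfb1* (0.19, adjusted p = 0.0221) and *Nrros* (0.24, adjusted p = 0.0301) on day 42. Uncalled values near 0 changed sign for *Ltbp3* on day 7, at -0.0146 with at least 10 counts in every library, -0.0025 with only the 2 groups, -0.0063 in DESeq2 and -0.0373 to 0.0358 with single libraries left out, and for *Lrrc32* on day 14, at -0.0197 without the 2 libraries and -0.0289 to 0.0805 with single libraries left out, the lowest without day 14 mouse 8. Single libraries also turned *Ltbp1* on day 35 (-0.0094 to 0.0491, the lowest without CTRL mouse 8) and *Lrrc32* on day 14 against day 7 (-0.1238 to 0.0238, the highest without day 7 mouse 5). Beyond what the tests themselves show, the cause was not tested.

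With the replicate number as a block, *Tgfb3* on day 42 against day 14 passed (-0.33, adjusted p = 0.0179), raising that count from 6 to 7, and no other call of the 72 printed changed. The numbers do not pair the mice, since 63 of 204 same-numbered pairs had a correlation over 0.1, the lowest was -0.54, and 7 of 75 mice correlated best with their own number.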
